A study of Mus musculus with 8 samples.

Results

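The 10 genes described here carry the Notch pathway from the cell surface to its first targets: the receptors *Notch1*, *Notch2* and *Notch3*, the ligands *Dll1* and *Jag1*, the DNA-binding factor *Rbpj*, and the target genes *Hes1*, *Hes5*, *Hey1* and *Hey2*. They were chosen by name for these roles, without a threshold on any measured value. All 10 were found among the 50686 genes of the count table, and all 10 were among the 16018 genes with enough reads to be tested.

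Notch receptors are activated by ligands of the Delta and Jagged families on a neighbouring cell. A protease and then the γ-secretase complex cut the receptor, and the freed intracellular domain enters the nucleus, where it joins RBPJ and Mastermind-like coactivators on DNA and switches on *Hes* and *Hey* genes, which encode transcriptional repressors. In the adult brain the pathway is known for keeping neural stem cells of the dentate gyrus undifferentiated, for its activity in astrocytes, and for signaling between endothelial and mural cells of blood vessels.

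Bulk mRNA of ventral hippocampus was sequenced from male mice of the C57BL/6J strain (C57B6/J in the labels), 8 weeks old and without a transgene or deletion. The vehicle group (replicates 1 to 4) received an injection of vehicle. The corticosterone group (replicates 5 to 8) received 3 mg/kg corticosterone, the main glucocorticoid of rodents. Both groups were injected in the morning and killed 3 h later, and each group holds 4 mice. The comparison asks which transcripts differ in this region 3 h after a pulse of glucocorticoid. The tissue was not sorted, so fewer cells of a type and less RNA per cell cannot be told apart in any value below.

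Reads on genes ranged from 17492159 to 19931987 per library. *Fkbp5*, a classic glucocorticoid-induced gene that encodes a cochaperone of the glucocorticoid receptor, rose from 1957 ± 301 to 3309.6 ± 159 normalized counts (SD, n = 4 each), a log2 fold change of 0.76 (standard error, SE, 0.0968, adjusted p = 0.0481, edgeR's quasi-likelihood test), and was the 1 gene of 16018 past the adjusted threshold of 0.05. Over the 16 settings tried, its unadjusted p was always under 0.05, but its adjusted p reached 0.331. No gene passed in edgeR with at least 10 reads required in every library, or without vehicle replicate 2, 3 or 4 or corticosterone replicate 6, 7 or 8. Markers of hippocampal neurons were present in every library, with a summed level of 54012 to 69522 normalized counts over 9 genes. Corticosterone replicate 5 stood apart from the other 3 corticosterone libraries. On the first principal component, which held 33.7% of the variance, it was at -19.2 and vehicle replicates 1 to 3 lay between -24.8 and -8.33, while corticosterone replicates 6 to 8 lay between 18.9 and 23.5 and vehicle replicate 4 at 5.11. For *Fkbp5*, however, replicate 5 had 3186 normalized counts, beside 3177 to 3510.5 in the other corticosterone libraries and 1709 to 2373 after vehicle. Why this library stands apart in other genes cannot be told from the files, and results that rest on it are given with and without it.

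Per length of exon, 3 of the 4 target genes were the most abundant of the 10, and the receptors and ligands were lower. In reads per kilobase of merged exons, scaled to the library total (RPKM), *Hey1* had the highest level after vehicle, 12.0 ± 1.38 (SD, n = 4, range 10.6 to 13.2), and its range did not overlap that of any other of the 10. *Hes5* followed with 5.90 RPKM (range 3.61 to 8.37) and *Hes1* with 5.42 (range 4.51 to 6.22), which overlapped each other and lay above the 7 remaining genes. Among the receptors, *Notch2* was at 2.17 RPKM (range 1.91 to 2.54) and *Notch1* at 1.72 (range 1.55 to 2.01), with overlapping ranges. *Dll1*, at 1.53 RPKM, overlapped *Notch1*, and *Rbpj*, at 1.09 RPKM, overlapped *Dll1*. The lowest levels were those of *Notch3* (0.898 RPKM), *Jag1* (0.855 RPKM) and *Hey2* (0.768 RPKM), whose ranges overlapped. After corticosterone, *Hey1* was again highest, with 10.9 RPKM, and *Notch3* was lowest, with 0.713 RPKM. All these levels are averages over the whole tissue, and a gene used by few cells has a low average.

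**Figure D1:**
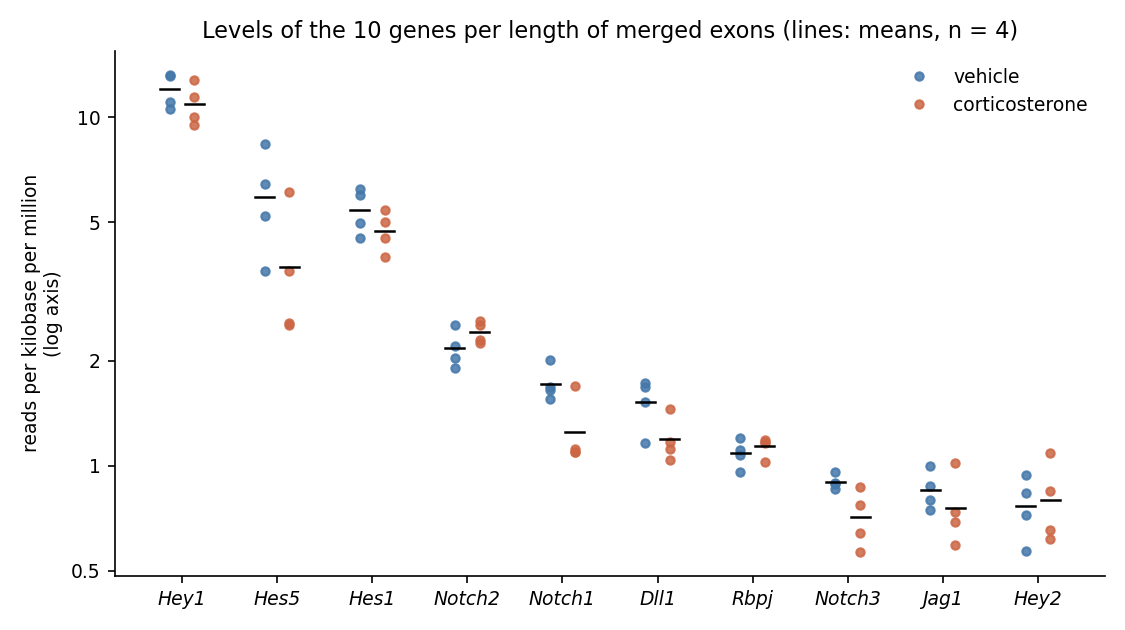
Level of each gene in reads per kilobase of merged exons, scaled to the library total (RPKM, log axis), with 1 point per library for vehicle and corticosterone and lines at the group means (n = 4). *Hey1* stands above all other genes after vehicle (10.6 to 13.2), and *Notch3*, *Jag1* and *Hey2* form the lowest group, with means of 0.768 to 0.898 after vehicle.

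None of the 10 genes passed the adjusted threshold after corticosterone (0 of 10, where 0.00624% of all genes tested passed, by edgeR's quasi-likelihood test with Benjamini-Hochberg adjustment), and DESeq2 also called 0 of 10, where 0.374% of all genes passed. At an unadjusted p under 0.05, 4 of the 10 were lower and 0 were higher in edgeR, where 4.52% of all genes tested were lower and 4.51% higher. DESeq2 had 3 of 10 lower at that level, where 2.83% of all 27483 genes with a read were. That share is over a wider set than the 16018 genes tested in edgeR, so the 2 shares are not alike. The 4 genes were *Notch1*, *Notch3*, *Dll1* and *Hes5*. This count rested on single libraries: in edgeR it was 1 without vehicle replicate 2, corticosterone replicate 6 or corticosterone replicate 8, 2 without vehicle replicate 3 (1 of them higher), vehicle replicate 4 or corticosterone replicate 7, and 5 without corticosterone replicate 5. The share of all genes at that level, 9.03% with all libraries, moved as well, to 6.63%, 4.69% and 5.05% in the first 3 of these fits, to 5.17%, 15.3% and 5.76% in the next 3, and to 29.0% in the last. By sign alone, 7 of 10 had a log2 fold change below 0, against 49.3% of all genes tested, and the median of the 10 was -0.19, against 0.0036 over all genes tested. In 0 of the 10 did the 4 corticosterone values fall wholly outside the range of the 4 vehicle values, which happened in 3.66% of all genes tested.

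**Figure D2:**
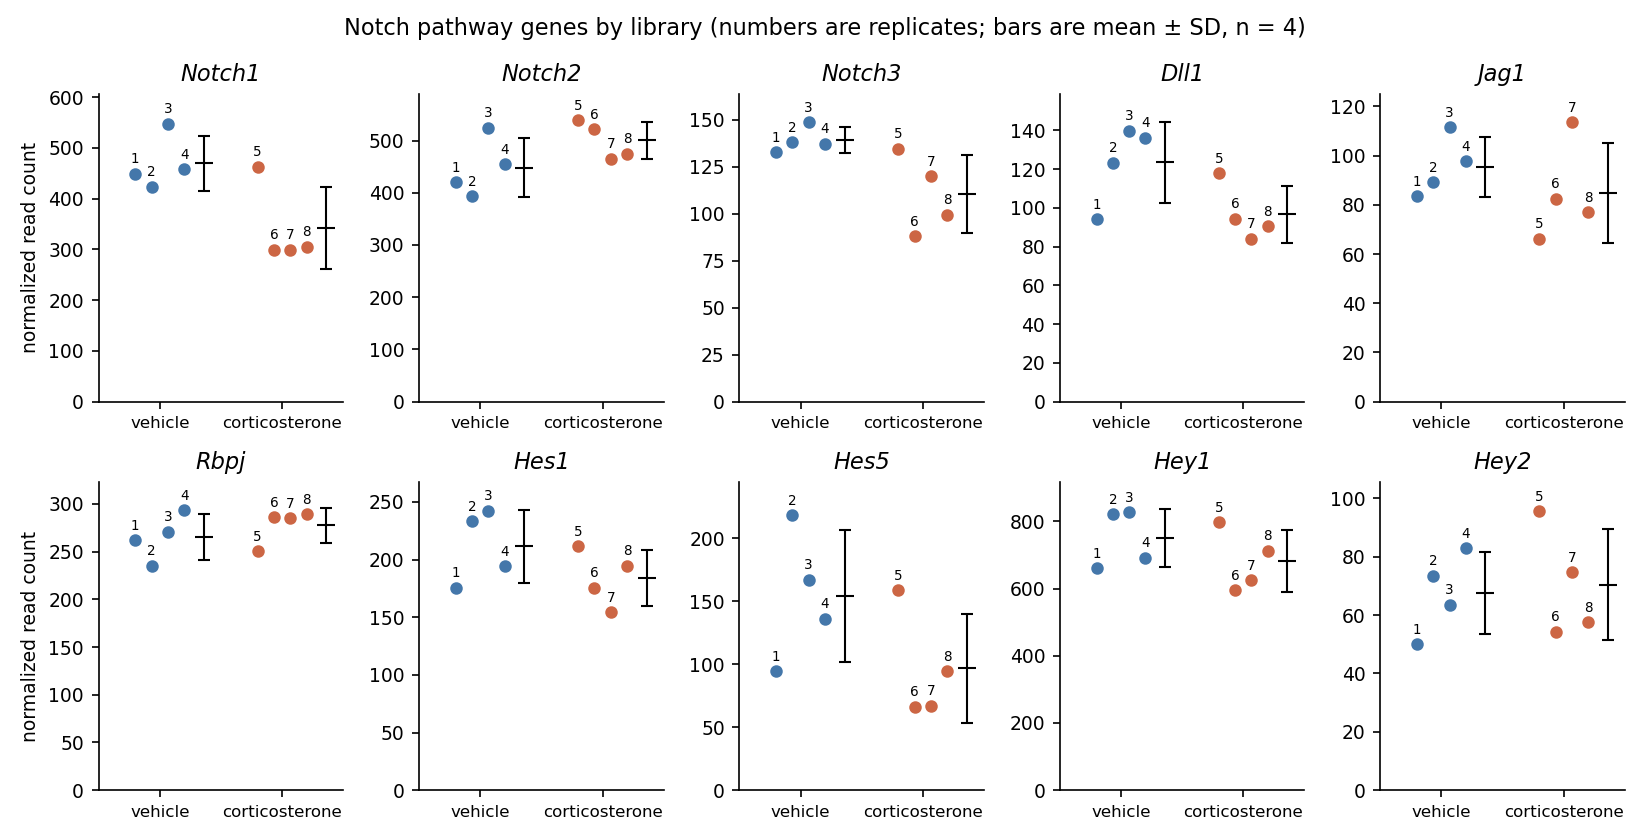
Normalized counts of each gene in the 8 libraries, 1 panel per gene with its own axis from 0; points carry the replicate number and bars show mean ± SD (n = 4). In the *Notch1* panel, corticosterone replicates 6 to 8 lie between 299 and 305, below the vehicle values, and replicate 5 lies at 463, within them.

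*Notch1* (ENSMUSG00000026923, chr2:26457903-26516663 on the minus strand of GRCm38) encodes a receptor that is widely used in stem cells, glia and endothelium. Its normalized counts were 449, 423, 548 and 458 in vehicle replicates 1 to 4. In corticosterone replicates 5 to 8 they were 463, 299, 299.5 and 305. Replicates 6 to 8 were close to each other and below every vehicle library, and replicate 5 was inside the vehicle range. The means were 469 ± 54.3 after vehicle and 342 ± 80.9 after corticosterone (SD, n = 4 each), a log2 fold change of -0.46 (SE 0.144, unadjusted p = 0.00757, adjusted p = 0.451, edgeR). An exact permutation test (two-sided) gave p = 0.114, where 0.0286 is the smallest p that 4 against 4 allows. All 4 corticosterone values were below the vehicle mean. Leaving out corticosterone replicate 5 gave -0.64 and an adjusted p of 0.0108 by edgeR, in a fit in which 10.2% of all genes passed. *Notch1* had an unadjusted p under 0.05 in all 16 settings tried, while its adjusted p ranged from 0.0108 to 0.919 over them.

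*Notch2* (ENSMUSG00000027878, chr3:98013527-98150361, plus strand), a receptor with a similar ligand range, did not share this pattern. Vehicle replicates 1 to 4 had 420.3, 394, 524 and 455 normalized counts, and corticosterone replicates 5 to 8 had 539, 522, 466 and 475. All 4 corticosterone values were above the vehicle mean, and 3 of them lay inside the vehicle range. This gave a log2 fold change of 0.16 (SE 0.102, unadjusted p = 0.146, adjusted p = 0.594, edgeR). It was 0.10 without vehicle replicate 2 and 0.24 (unadjusted p = 0.0336, edgeR) without vehicle replicate 3.

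The ratio of both receptors within each library was computed after their opposite signs had been seen. It restates these values library by library, is given without a test, and was not set against the ratios of other gene pairs. There were 1.07, 1.07, 1.04 and 1.01 *Notch1* reads per *Notch2* read in vehicle replicates 1 to 4. The corresponding ratios in corticosterone replicates 5 to 8 were 0.859, 0.574, 0.643 and 0.643. Every corticosterone library, replicate 5 included, was below every vehicle library. The mean ratio was 1.05 ± 0.0307 after vehicle and 0.680 ± 0.124 after corticosterone (SD, n = 4 each), and the difference of the mean log2 ratios was -0.64. A ratio within a library does not depend on how libraries are scaled, but it compares read numbers of genes of different length and base composition.

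**Figure D3:**
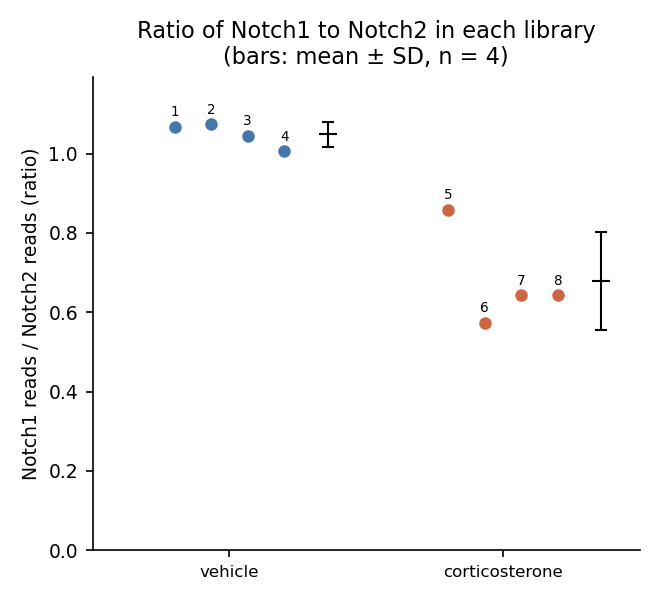
*Notch1* reads per *Notch2* read in each library (axis from 0), with 1 point per library and the mean ± SD of each group (n = 4). The vehicle libraries lie between 1.01 and 1.07, and the corticosterone libraries between 0.574 and 0.859.

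*Notch3* (ENSMUSG00000038146, chr17:32120820-32166852, minus strand) is the receptor of vascular smooth muscle cells and pericytes. It was steady after vehicle, with 133, 138, 149 and 137 normalized counts. After corticosterone, replicates 5 to 8 had 135, 87.9, 119.8 and 99.4. Replicate 5 was again within the vehicle range and the other 3 were below it. A log2 fold change of -0.33 was found (SE 0.144, unadjusted p = 0.0387, adjusted p = 0.545, edgeR; exact permutation p = 0.0571), with -0.44 and an adjusted p of 0.0590 when replicate 5 was left out and -0.24 (unadjusted p = 0.123, edgeR) without corticosterone replicate 6. The unadjusted p was under 0.05 in 10 of 16 settings. The spread among the vehicle libraries, a coefficient of variation of 4.89%, was no larger than the 8.40% that counting alone gives at this depth.

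The promoter of *Notch1* is shown as that of the receptor with the lowest unadjusted p. The window is chr2:26503773-26504072, minus strand, of RefSeq's GRCm38.p6 annotation, from 250 bases before to 50 bases after an annotated start. Capitals mark CACNAG, a core of the N-box sequence bound by HES-type repressors, searched on both strands (CTNGTG on the other strand).
Notch1: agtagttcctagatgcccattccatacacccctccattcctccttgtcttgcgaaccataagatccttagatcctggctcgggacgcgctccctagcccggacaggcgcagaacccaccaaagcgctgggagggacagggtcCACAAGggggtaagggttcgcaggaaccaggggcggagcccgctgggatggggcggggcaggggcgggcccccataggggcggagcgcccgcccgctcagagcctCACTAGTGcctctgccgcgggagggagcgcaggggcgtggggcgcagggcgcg
The window has 3 matches, with 1 starting 108 bases upstream of the start and 2 that overlap each other beside the start. At least 1 match was found in 42.5% of all 32851 windows of this length, and 3 or more in 2.10%. Windows were at hand for 8 of the 10 genes, all but *Hes1* and *Hey1*. These 8 genes had 10 windows, since *Dll1* and *Rbpj* had more than 1, so counts per gene and shares of windows are unlike measures. Of these 8 genes, 4 had a CACNAG match, with 2 matches in *Notch3* and 1 each in *Notch2* and *Dll1*. The full palindromic glucocorticoid response element in its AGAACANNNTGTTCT form was in 0 of these 8 genes and in 0.00913% of all windows, and the shorter AGAACA, on either strand, was in 1 of the 8, *Dll1*, and in 19.0% of all windows. These matches are letters only and were not read as binding sites.

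Of the ligands, *Dll1* was more abundant per length than *Jag1* after vehicle, without overlap. *Dll1* (ENSMUSG00000014773, chr17:15367354-15376872, minus strand), a Delta-type ligand, had 94.3, 123, 139.9 and 136 normalized counts in vehicle replicates 1 to 4. It had 118, 94.4, 84.1 and 90.6 in corticosterone replicates 5 to 8. The corticosterone libraries were all below vehicle replicates 2 to 4, and vehicle replicate 1 lay among them. On the log2 scale, the fitted difference was -0.35 (SE 0.160, unadjusted p = 0.0485, adjusted p = 0.545, edgeR; exact permutation p = 0.0857). It had an unadjusted p under 0.05 in 6 of 16 settings. Exons of *Dll1* share 20.5% of their bases with *A930024N18Rik* on the opposite strand, which had 38 to 62 reads. The libraries were stranded, but the strand setting of the counting is not given in the sources used here, so some of these reads may be assigned to either gene.

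*Jag1* (ENSMUSG00000027276, chr2:137081456-137116644, minus strand), a Jagged-type ligand, varied widely. Its normalized counts were 83.5, 89.1, 112 and 97.7 after vehicle, and 66.3, 82.4, 114 and 77.0 in corticosterone replicates 5 to 8. The corticosterone group held both the lowest and the highest of the 8 values. The fitted difference on the log2 scale was -0.17 (SE 0.177, adjusted p = 0.714, edgeR). Leaving out corticosterone replicate 5 gave -0.07, leaving out vehicle replicate 3 gave -0.09, and leaving out corticosterone replicate 7 gave -0.34.

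*Rbpj* (ENSMUSG00000039191, chr5:53466152-53657362, plus strand) encodes the DNA-binding protein through which all Notch receptors act. It had 262, 235, 271 and 293 normalized counts after vehicle. The values were 251, 286, 285 and 289 in corticosterone replicates 5 to 8, where replicate 5 was the lowest. The groups overlapped, with a log2 fold change of 0.07 (SE 0.102, adjusted p = 0.809, edgeR), or 0.01 to 0.11 with single libraries left out.

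The target genes differed among themselves in how much they varied. *Hes5* (ENSMUSG00000048001, chr4:154960923-154962371, plus strand), a repressor gene used as a readout of Notch activity in neural stem cells, had 94.3, 218, 167 and 136 normalized counts in vehicle replicates 1 to 4. In corticosterone replicates 5 to 8 it had 159, 66.2, 67.3 and 94.5. Vehicle replicate 1 lay with the corticosterone libraries and corticosterone replicate 5 with the vehicle libraries. The means were 154 ± 52.3 and 96.7 ± 43.5 (SD, n = 4 each). The log2 fold change of -0.66 was the lowest of the 10, but its standard error of 0.290 was the widest (unadjusted p = 0.0393, adjusted p = 0.545, edgeR; exact permutation p = 0.143). Without corticosterone replicate 5 it was -1.01 with an adjusted p of 0.0253 by edgeR, and the groups still overlapped. It was -0.45 (unadjusted p = 0.157, edgeR) without vehicle replicate 2, and the unadjusted p was under 0.05 in 11 of 16 settings. Among the vehicle libraries, *Hes5* had a coefficient of variation of 34.0%, against 7.98% from counting alone. Its exons share 31.8% of their bases with *Gm20421* on the opposite strand, which had 0 to 5 reads.

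*Hes1* (ENSMUSG00000022528, chr16:30064384-30067796, plus strand), a related repressor gene that also answers to other signals, had 176, 233, 243 and 194 normalized counts after vehicle. The corticosterone replicates 5 to 8 had 212, 176, 154 and 195. Both groups overlapped over most of their range, and the log2 fold change was -0.20 (SE 0.137, adjusted p = 0.608, edgeR), or -0.28 to -0.12 with single libraries left out. *Hey1* (ENSMUSG00000040289, chr3:8663359-8667256, minus strand), the most abundant of the 10 per length, had 661, 822, 828 and 692 normalized counts after vehicle, and 798, 594, 625 and 713 in corticosterone replicates 5 to 8. Its log2 fold change was -0.14 (SE 0.110, adjusted p = 0.646, edgeR), with overlapping groups, and it ranged from -0.22 to -0.07 with single libraries left out. *Hey2* (ENSMUSG00000019789, chr10:30832359-30842801, minus strand), known from arterial endothelium and heart, had 50.1, 73.5, 63.6 and 82.9 after vehicle and 95.5, 54.2, 74.6 and 57.5 after corticosterone. With a log2 fold change of 0.06 (SE 0.214, adjusted p = 0.921, edgeR), it had no direction that held, since the sign was the opposite without vehicle replicate 1 (-0.06) or without corticosterone replicate 5 (-0.12).

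The promoters of *Hes5* and *Hey2* are shown because, of the 8 genes with a window, they were the 2 that hold GTGGGAA. *Hes1* and *Hey1* had no window, so 2 of the 4 target genes were searched. GTGGGAA is a form of the sequence that RBPJ binds and was searched on both strands (TTCCCAC on the other strand) and marked in capitals. The *Hes5* window is chr4:154960673-154960972, plus strand, and the *Hey2* window is chr10:30842734-30843033, minus strand, both from RefSeq on GRCm38.p6.
Hes5: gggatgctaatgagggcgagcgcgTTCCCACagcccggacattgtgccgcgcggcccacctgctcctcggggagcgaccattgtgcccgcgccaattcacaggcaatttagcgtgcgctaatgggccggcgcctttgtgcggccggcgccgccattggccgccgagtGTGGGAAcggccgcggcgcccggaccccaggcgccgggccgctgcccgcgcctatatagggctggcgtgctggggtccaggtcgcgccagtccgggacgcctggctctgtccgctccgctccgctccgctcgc
Hey2: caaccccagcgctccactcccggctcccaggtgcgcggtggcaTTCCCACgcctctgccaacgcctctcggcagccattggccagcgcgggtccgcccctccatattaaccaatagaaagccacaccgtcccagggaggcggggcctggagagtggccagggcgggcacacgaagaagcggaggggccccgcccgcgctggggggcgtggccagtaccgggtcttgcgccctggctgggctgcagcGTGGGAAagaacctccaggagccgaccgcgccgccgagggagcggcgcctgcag
Each window has 2 matches in opposite orientation, at 226 and 83 bases upstream of the start in *Hes5* and at 207 and 4 bases upstream in *Hey2*. Of all 32851 windows, 6.38% held at least 1 match and 0.256% held 2 or more. The log2 fold changes of *Hes5* and *Hey2* were -0.66 and 0.06.

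**Figure D4:**
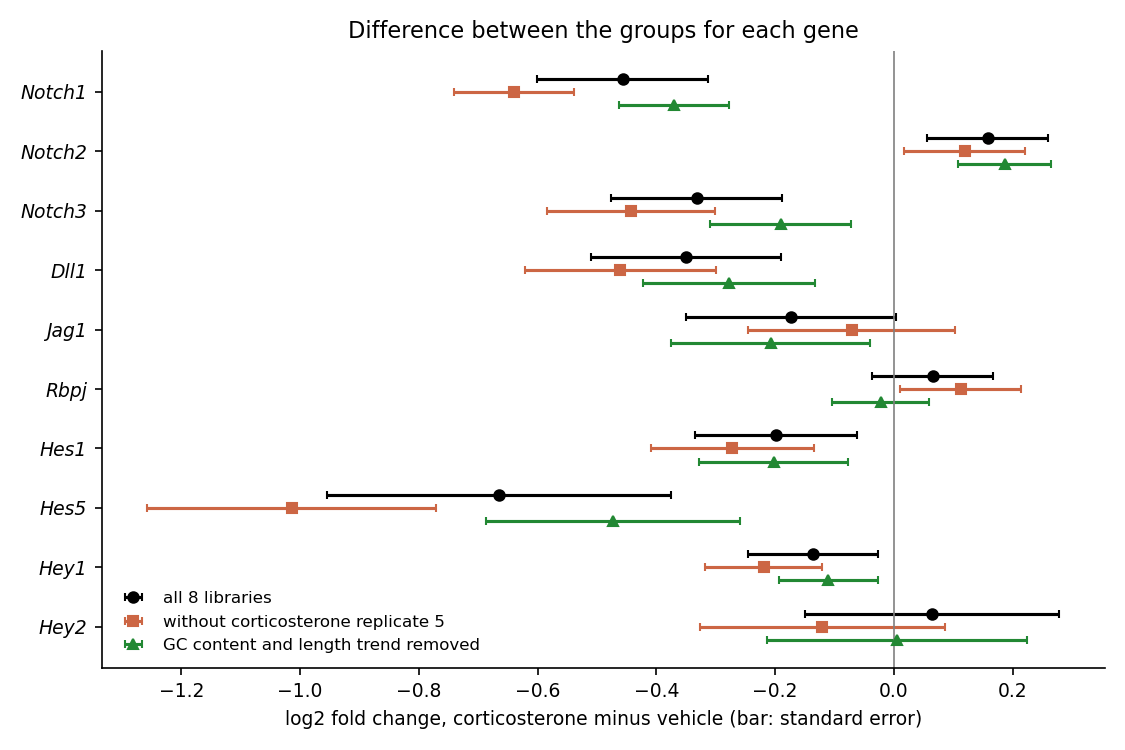
Log2 fold change (corticosterone minus vehicle) of each gene with its standard error, from edgeR with all 8 libraries, without corticosterone replicate 5, and with the trend of each library with base composition and length removed. *Hes5* is lowest with all libraries (-0.66) and lower still without replicate 5 (-1.01), while *Rbpj*, *Hey2* and *Notch2* lie near or above 0 with all 8.

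Corticosterone replicate 5 was the highest of the 4 corticosterone libraries in 8 of the 10 genes, against 37.2% of all genes tested, and the lowest for *Jag1* and *Rbpj*. Without it, 2 of the 10 genes fell at an adjusted p under 0.05 by edgeR, *Notch1* and *Hes5*, where 6.47% of all genes tested fell. The log2 fold changes were then -0.46 for *Dll1*, -0.27 for *Hes1*, -0.22 for *Hey1*, 0.12 for *Notch2* and 0.11 for *Rbpj*. The unadjusted count in that fit was 5 of 10, all lower, where 15.6% of all genes tested were lower. In *Notch1* and *Notch3*, replicates 6 to 8 did not overlap the vehicle libraries, which happened in 24.4% of all genes when replicate 5 was left out.

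The dependence of read number on base composition also set corticosterone replicates 6 to 8 below every vehicle library and replicate 5 above them. The slope of read number on guanine and cytosine (G+C) content, in log2 units per SD of G+C, was 0.125 in corticosterone replicate 5 and between -0.115 and -0.0822 in replicates 6 to 8, and it was 0.0375, 0.0910, 0.110 and -0.0529 in vehicle replicates 1 to 4. The transcripts of *Notch1*, *Notch3*, *Dll1* and *Hes5* have 54.9% to 62.1% G+C, above the median of 49.7% of the genes tested. The 3362 genes tested in that range had a median log2 fold change of -0.14, and 11.5% of them were lower at an unadjusted p under 0.05. With the trend of each library with G+C content and length removed, the log2 fold changes were -0.37 for *Notch1* (adjusted p = 0.144, edgeR), -0.47 for *Hes5*, -0.28 for *Dll1* and -0.19 for *Notch3*. In that fit, *Notch1* and *Hes5* were lower and *Notch2* was higher (0.19, unadjusted p = 0.0305) at an unadjusted p under 0.05, where 5.34% of all genes were lower and 4.39% higher, and the log2 ratio of *Notch1* to *Notch2* differed by -0.56. The median of the 10 genes was then -0.20, and 8 of the 10 were below 0, where 52.7% of all genes in that fit were.

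Markers of the cells that use the pathway were read beside these genes, as summed normalized counts per library. The 8 endothelial markers summed to 2166 to 2354 after vehicle and 1847 to 2005 after corticosterone, without overlap. Of them, 7 of 8 had a log2 fold change below 0, and 3 (*Cldn5*, *Tek* and *Kdr*) were lower and 0 higher at an unadjusted p under 0.05, where 4.52% of all genes tested were lower and 4.51% higher. Replicate 5 had the lowest endothelial sum, whereas it had the highest *Notch1* of the corticosterone group. The 9 markers of neural stem cells and neuroblasts summed to 2820 to 3130 after vehicle and 2410 to 2973 after corticosterone. As with *Notch1*, replicate 5 (2973) was inside the vehicle range, and replicates 6 to 8 (2459, 2410 and 2542) were below every vehicle library. Of these, 6 of 9 had a log2 fold change below 0, and 2 were lower and 0 higher at that level. The 10 astrocyte markers summed to 87450 to 102622 after vehicle and 90359 to 97225 after corticosterone, with the corticosterone range inside that of vehicle, and 7 of 10 had a log2 fold change below 0, with 2 lower and 1 higher at that level. The 8 mural markers summed to 2616 to 3340 and 3030 to 3381, and 7 of 8 had a log2 fold change above 0. At that level, 1 was lower, *Pdgfrb* (-0.31), and 2 were higher, *Myh11* (0.65) and *Tagln* (0.63), beside *Notch3*, which was lower (-0.33). The 6 markers of oligodendrocyte precursors and the 7 of choroid plexus and ependyma had overlapping sums, with 3 lower and 2 higher of 6 and 0 lower and 2 higher of the 5 tested. The 9 neuron markers also had replicate 5 (62055) within the vehicle range of 58203 to 69522 and replicates 6 to 8 (54012 to 55672) below it. Of these, 5 of 9 had a log2 fold change below 0, with 2 lower and 0 higher at that level. The most abundant gene weighs most in a sum, which was *Slc17a7* for neurons and *Slc1a2* for astrocytes. *Slc17a7* alone had 36103 in replicate 5, 27857 to 28425 in replicates 6 to 8 and 29206 to 39952 after vehicle. A neuron sum without it was not computed, so the pattern of the sum may be that of this gene. No marker was at 0 in every library. The part of these cell types in the values of the 10 genes was not tested.

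The rest of the pathway was taken from a list of 61 further genes in 6 roles, of which 59 were tested, all but *Hes2* and *Hes3*, which had at most 5 reads in any library. None passed the adjusted threshold in edgeR (0 of 59), and 1, *Aph1b*, passed it in DESeq2, the tool with 0.374% of all genes called. At an unadjusted p under 0.05, 6 were lower and 1 was higher in edgeR, where 4.52% and 4.51% of all genes tested were. With the G+C content and length trend removed, 4 were lower and 3 were higher at that level, where 5.34% and 4.39% of all genes were. The total of 7 was 4 without vehicle replicate 2 or 3 or corticosterone replicate 7 or 8, 11 without vehicle replicate 1, 16 without vehicle replicate 4 and 24 without corticosterone replicate 5. The share of all genes at that level moved too, from 9.03% with all libraries to 6.63%, 5.17%, 5.76% and 5.05% in the first 4 of these fits and 7.33%, 15.3% and 29.0% in the last 3. The median log2 fold change of the 59 was -0.07. Values that did not overlap between the groups were found in 5 of 59, *Aph1b*, *Dll4*, *Nrarp*, *Heyl* and *Dtx2*, where the share of all genes tested was 3.66%.

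Among the other 7 receptors and ligands, 4 had a log2 fold change below 0. *Dll4*, the Delta-type ligand of arterial and sprouting endothelium, had 38.3, 47.0, 51.8 and 36.5 normalized counts after vehicle and 34.1, 20.6, 16.8 and 25.3 in corticosterone replicates 5 to 8. Every corticosterone library was below every vehicle library, with a log2 fold change of -0.83 (SE 0.247, unadjusted p = 0.00514, adjusted p = 0.421, edgeR; exact permutation p = 0.0286), at 16 to 53 reads per library. *Notch4*, the receptor largely restricted to endothelium, had 146 ± 34.3 normalized counts after vehicle and 182 ± 34.4 after corticosterone (SD, n = 4 each), with a log2 fold change of 0.32 (adjusted p = 0.562, edgeR). It was 0.51 with the G+C content and length trend removed (unadjusted p = 0.0024, adjusted p = 0.191, edgeR) and was lower, at 0.18 without vehicle replicate 4 and at 0.20 without corticosterone replicate 5. The endothelial ligand and the endothelial receptor had opposite signs, beside an endothelial marker sum that was lower.

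The 4 further targets tested all had a log2 fold change below 0, from -0.37 to -0.05 with a median of -0.37, against 49.3% of all genes tested. At an unadjusted p under 0.05, 2 of the 4 were lower, against 4.52% of all genes tested. Their transcripts have 54.5% to 61.7% G+C, above the median of 49.7% of the genes tested. *Nrarp*, a target gene whose product limits Notch signaling in turn, had 396, 432, 494 and 374 normalized counts after vehicle and 354, 278, 335 and 347 in corticosterone replicates 5 to 8. All 4 corticosterone values were below all 4 vehicle values, replicate 5 included. Exons of *Nrarp* share 79.4% of their bases with *Gm38287* on the opposite strand, which had 0 reads in every library. The log2 fold change was -0.37 (SE 0.112, unadjusted p = 0.00602, adjusted p = 0.439, edgeR; exact permutation p = 0.0286). *Heyl*, the third member of the *Hey* group, had a mean of 75.6 ± 8.17 after vehicle and 58.4 ± 7.46 after corticosterone (SD, n = 4 each), also without overlap, with a log2 fold change of -0.37 (unadjusted p = 0.0361, adjusted p = 0.545, edgeR). The unadjusted p was under 0.05 in 8 of 16 settings and was 0.0657 without corticosterone replicate 5, 0.0602 in DESeq2 and 0.0989 with the G+C content and length trend removed.

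Of the 10 proteases and γ-secretase genes, 6 had a log2 fold change below 0 and 4 above. *Aph1b*, a γ-secretase subunit, had 810.2, 798, 747 and 887 normalized counts after vehicle and 943, 1040.3, 1112 and 1019 in corticosterone replicates 5 to 8. Every corticosterone value was above every vehicle value. Its log2 fold change of 0.34 had a standard error of 0.0792 (unadjusted p = 0.000825, adjusted p = 0.250, edgeR), and the adjusted p was 0.0437 in DESeq2. Its paralog *Aph1c* had a log2 fold change of 0.19 (adjusted p = 0.620, edgeR), and whether reads were split between these paralogs was not tested.

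In the ubiquitin ligase and endocytosis group, 8 of 12 had a log2 fold change below 0, against 49.3% of all genes tested, and 3 were lower at an unadjusted p under 0.05, against 4.52%. These were *Numbl*, a Numb-type adaptor that restrains Notch (-0.34, unadjusted p = 0.00945, adjusted p = 0.468, edgeR), and the Deltex genes *Dtx3* (-0.23, adjusted p = 0.529) and *Dtx2* (-0.26, adjusted p = 0.545). With the base composition trend removed, *Dtx3* was at -0.09. The 5 glycosyltransferases, which modify the receptors, and the 21 coactivators and corepressors had no gene at an unadjusted p under 0.05, with medians of 0.10 and -0.07. Without corticosterone replicate 5, 13 of the 59 genes passed the adjusted threshold in edgeR, 12 lower and 1 higher, where 6.47% and 3.73% of all genes did. Among them were *Aph1b* (adjusted p = 0.0149), *Numbl* (0.0159), *Dtx3* (0.0224), *Dll4* (0.0274) and *Nrarp* (0.0405), all by edgeR.

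**Figure D5:**
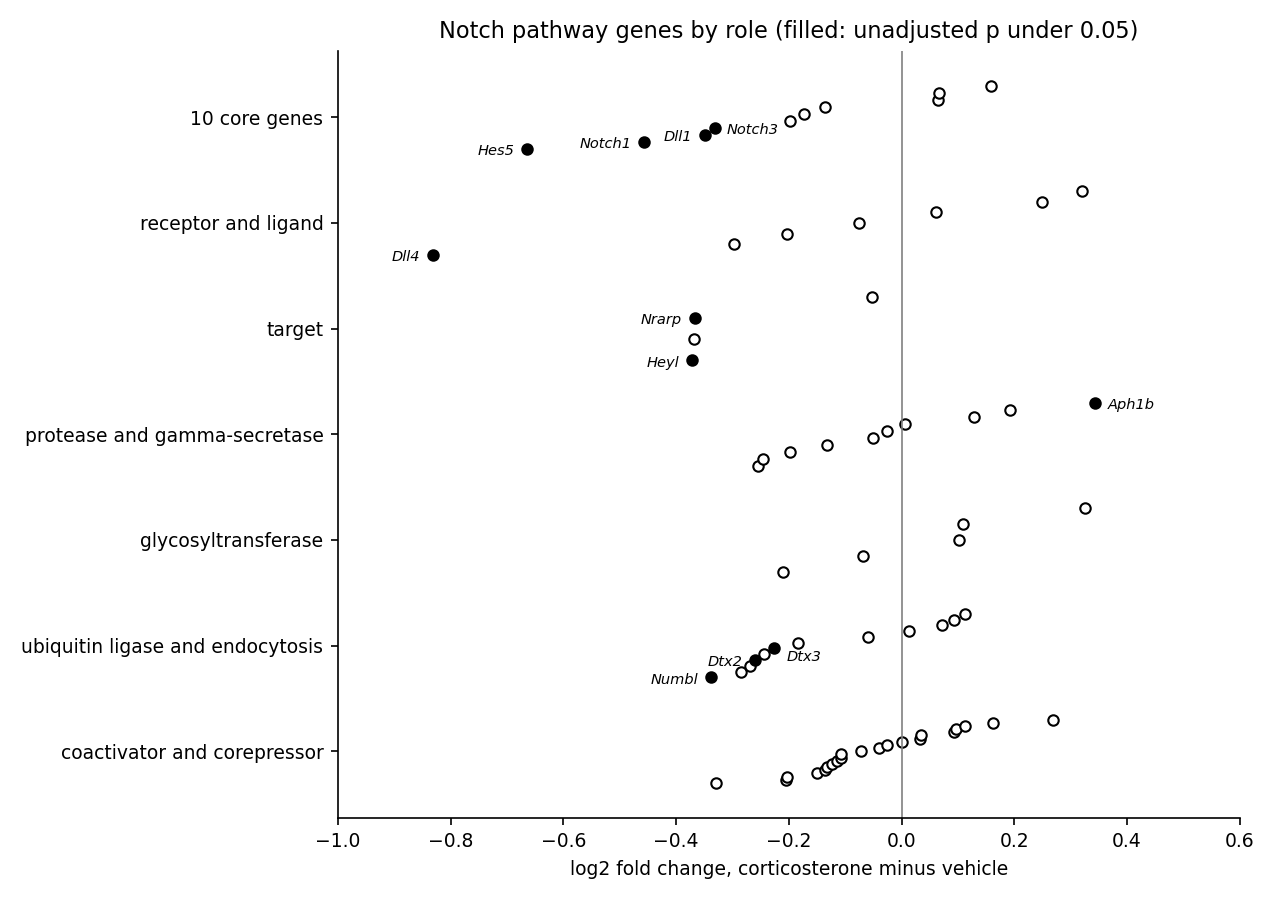
Log2 fold change (corticosterone minus vehicle) of the 10 core genes and of the other 59 pathway genes tested, by role, from edgeR with all 8 libraries; 1 point per gene, filled at an unadjusted p under 0.05 and named. Filled points are to the left of 0 apart from *Aph1b* (0.34), and *Dll4* lies farthest left (-0.83).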

How the data were processed

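RNA was sequenced as stranded, paired-end mRNA libraries from 8 mice, 1 library each. Per the study's methods, the authors aligned reads with GSnap to mm10, counted them per gene with HTSeq-count and deposited raw counts, whole numbers without normalization. The annotation release and the strand setting are not given in the sources used here. The HTSeq summary rows were left out of library sizes, and reads on genes were 84.6% to 86.3% of each library's total. All 8 columns were mapped from the labels, which name no batch. The p-values measure the spread between these samples.

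Gene names, coordinates and exon lengths came from GENCODE M21 (GRCm38), which held 50376 of the 50686 identifiers. Scaling was by TMM and low genes were removed by filterByExpr. The main comparison was edgeR's quasi-likelihood test (edgeR 4.0.16, R 4.3.3), with Benjamini-Hochberg adjustment over 16018 genes. An exact two-sided permutation test over the 70 assignments of 4 against 4 was run per gene on log2 values with a prior count of 2. The study used DESeq2, and DESeq2 1.42.0 was an alternative here, with limma-voom (limma 3.58.1), other scalings and filters, removal of each library's trend with G+C content and length (splines, 5 degrees of freedom), and each library left out in turn. The scripts were first checked on simulated data with known answers. In that check, edgeR found 81% of the changes of log2 1 and 44% of those of log2 0.5. Of its calls there, 9.42% were false. A change of log2 0.5 or less in a core gene could therefore be missed.

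The genes, lists and alternatives were chosen with earlier results of these data known. Named genes were the 10 core genes, *Notch4*, *Dll4*, *Heyl*, *Nrarp*, and up to 8 others of the pathway list with the smallest unadjusted p under 0.05. *Fkbp5* and the most abundant gene of the neuron and astrocyte marker lists were named as well. *Hes2*, *Hes3*, *Aph1c*, 3 endothelial markers, the mural markers and exon-sharing genes were named after their values were seen. Promoter windows came from RefSeq (GRCm38.p6). The single-cell data of the study were not analysed here.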

Additional observations from a re-analysis of the deposited data

Results flagged for a closer look

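In 38 sets of 4 values (the 10 core genes, the other named pathway genes and *Fkbp5*, in each group), 3 held a library that stood far apart. By chance this happens in about 1 in 20, or 1.9 of these sets. All 3 were corticosterone replicate 5. *Notch1* had 463 normalized counts there, against 299 to 305 in the other corticosterone libraries. *Rbpj* had 251, against 285 to 289. *Dtx3*, a Deltex gene, had 3781, against 3019 to 3081. The cause was not tested.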

How the results depend on the processing

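Over 15 alternatives, 145 of 150 results of the 10 genes kept their direction and their side of the adjusted threshold, 2 passed it (*Notch1* and *Hes5*, without corticosterone replicate 5) and 3 changed sign. *Rbpj* was at -0.022 with the G+C content and length trend removed, and *Hey2* ranged from -0.12 to 0.17 when single libraries were left out. The number of core genes past the adjusted threshold was 0 to 2 over the fits without single libraries, and at an unadjusted p under 0.05 it was 1 to 5, against 4 with all libraries, with the highest number of each without corticosterone replicate 5. The number of further pathway genes at that level was 15 with no filter on low counts, against 7, and 4 to 24 when single libraries were left out, while the share of all genes was 8.90% with no filter, against 9.03%, and 4.69% to 29.0% without single libraries. Core genes without overlap between groups numbered 2 without corticosterone replicate 5, against 0, and this alternative and the *Notch1* to *Notch2* ratio were chosen after seeing the data. That ratio's log2 difference ranged from -0.76 to -0.57 without single libraries. No paired analysis was possible because replicate numbers 1 to 4 and 5 to 8 have none in common. Among the named pathway genes tested, *Heyl* varied no more than counting alone gives, with coefficients of variation of 10.8% and 12.8% after vehicle and corticosterone against 11.4% and 13.2% from counting.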
